A study of Mus musculus with 4 samples.

Results

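The genes described here are 40 genes of the dividing cell, taken by their symbols from all 4 count tables. They are 19 genes of S phase, the stage in which DNA is copied, and 21 genes of mitosis, the stage in which the copied chromosomes are separated. All 40 were found in every table, among 32285 genes in the lung tables and 31053 in the allograft tables. The libraries came from mouse tumours of small cell lung cancer, a fast-dividing neuroendocrine carcinoma. CRPR2 and RPR2 were lung tumours of a model in which gene knockout starts the tumour, and the labels spell out neither name. preSC_CracdKO and preSC_WT were allograft tumours grown from preSC, a mouse cell line, with the genotypes CracdKO and WT. Each group was 1 library, so no comparison below has a test, and every interval covers counting error only. The labels name neither the number and age of the animals, nor the Cre driver, the number of clones or the allograft host.

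A cell about to copy its DNA loads the Mcm2 to Mcm7 helicase on origins with the help of Cdc6, and Cdc45 and Gins2 join the helicase when it starts to move. Pcna is the clamp that holds the polymerase, Fen1 trims the flaps between newly made fragments, Rrm1 and Rrm2 form ribonucleotide reductase, and Tyms makes the thymidine nucleotide. Later, Cdk1 with Ccnb1 or Ccnb2 drives the cell into mitosis, Aurka, Tpx2, Kif11 and Nusap1 build the spindle, Cenpa, Cenpe and Cenpf sit at the centromere, Bub1 and Bub1b hold the checkpoint, and Ube2c and Cdc20 act with the anaphase-promoting complex to end it. Genes of the first kind are known for E2F sites in their promoters. Genes of the second kind are known for CCAAT boxes and a cell cycle homology region, abbreviated CHR, close to the start. Small cell lung cancer as a rule lacks the retinoblastoma protein, which restrains E2F.

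Promoters of S genes and mitosis genes held the letters of these sites in different shares, and 5 are shown because their genes recur in the results. The sequences are the 150 bases before the start of the gene on its own strand, 5′ to 3′, from RefSeq (build GRCm38.p6). The genes are the S genes Mcm6 (chr1:128359706-128359855, minus strand) and Mcm2 (chr6:88898781-88898930, minus strand), and the mitosis genes Ube2c (chr2:164769779-164769928, plus strand), Ccnb1 (chr13:100786487-100786636, minus strand) and Cdk1 (chr10:69352913-69353062, minus strand). Capitals mark E2F, CCAAT and CHR letters alike, on either strand.
Mcm6: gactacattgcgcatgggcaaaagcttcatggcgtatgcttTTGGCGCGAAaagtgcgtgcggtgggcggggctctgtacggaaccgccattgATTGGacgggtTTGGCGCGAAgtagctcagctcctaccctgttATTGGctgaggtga
Mcm2: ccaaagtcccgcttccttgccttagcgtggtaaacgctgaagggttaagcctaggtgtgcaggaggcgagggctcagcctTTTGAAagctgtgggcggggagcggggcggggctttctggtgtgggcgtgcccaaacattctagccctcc
Ube2c: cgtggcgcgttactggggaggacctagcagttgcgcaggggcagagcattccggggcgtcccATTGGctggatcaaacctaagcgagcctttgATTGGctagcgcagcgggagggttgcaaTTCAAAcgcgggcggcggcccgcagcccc
Ccnb1: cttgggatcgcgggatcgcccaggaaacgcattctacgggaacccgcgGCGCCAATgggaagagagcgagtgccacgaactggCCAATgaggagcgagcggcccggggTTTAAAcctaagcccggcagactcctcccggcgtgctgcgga
Cdk1: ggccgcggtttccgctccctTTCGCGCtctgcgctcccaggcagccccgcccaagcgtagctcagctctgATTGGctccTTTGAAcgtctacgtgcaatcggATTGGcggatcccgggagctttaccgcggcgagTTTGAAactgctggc
The Mcm6 window holds 4 E2F matches in 2 overlapping pairs and 2 CCAAT boxes, and the Mcm2 window holds 1 CHR match and no E2F match. Ube2c and Ccnb1 each hold 2 CCAAT boxes and a CHR match within 60 bases of the start, Ccnb1 with 1 E2F match besides. Cdk1 holds 1 E2F match and, nearer the start, 2 CCAAT and 2 CHR matches in turn. All distances are from the RefSeq start. Another annotation, GENCODE, starts Ube2c at 164769898, Ccnb1 at 100786570 and Cdk1 at 69352938, inside the windows shown. Counted from there, the CHR matches of Ube2c and Ccnb1 and the nearer one of Cdk1 lie past the start.

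Of the 40 genes, 35 had a RefSeq promoter entry; Mcm4, Gins2, Ccna2, Aurkb and Tpx2 had none. The letters searched for E2F were TTCCCGC, with its variants TTCGCGC, besides TTGCCGC, followed by TTGGCGC. For CHR they were TTTGAA, with its variant TTTAAA, and the box was searched as CCAAT, all on both strands of the 250 bases before the start. The spellings, and the 60-base window below, were chosen after matches had been counted, and the first listed start of each gene was used. E2F letters were in 9 of 17 S genes and 3 of 18 mitosis genes, and in 7.97% of 27025 genes. CHR letters were in 12 of 18 mitosis genes and 4 of 17 S genes, and in 25.5% of all genes. Within 60 bases of the start, CHR letters were in 8 mitosis genes and 0 S genes, and in 5.83% of all genes. CCAAT was in 16 of 18 mitosis genes, 11 of 17 S genes and 34.5% of all genes. Matches overlapped in few places, namely 3 pairs of E2F matches in Mcm5 and Mcm6, 1 pair of CCAAT matches, and 1 E2F match with a CCAAT box in Ccnb1. A match is a run of letters, and the factors themselves were not measured here.

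**Figure D1:**
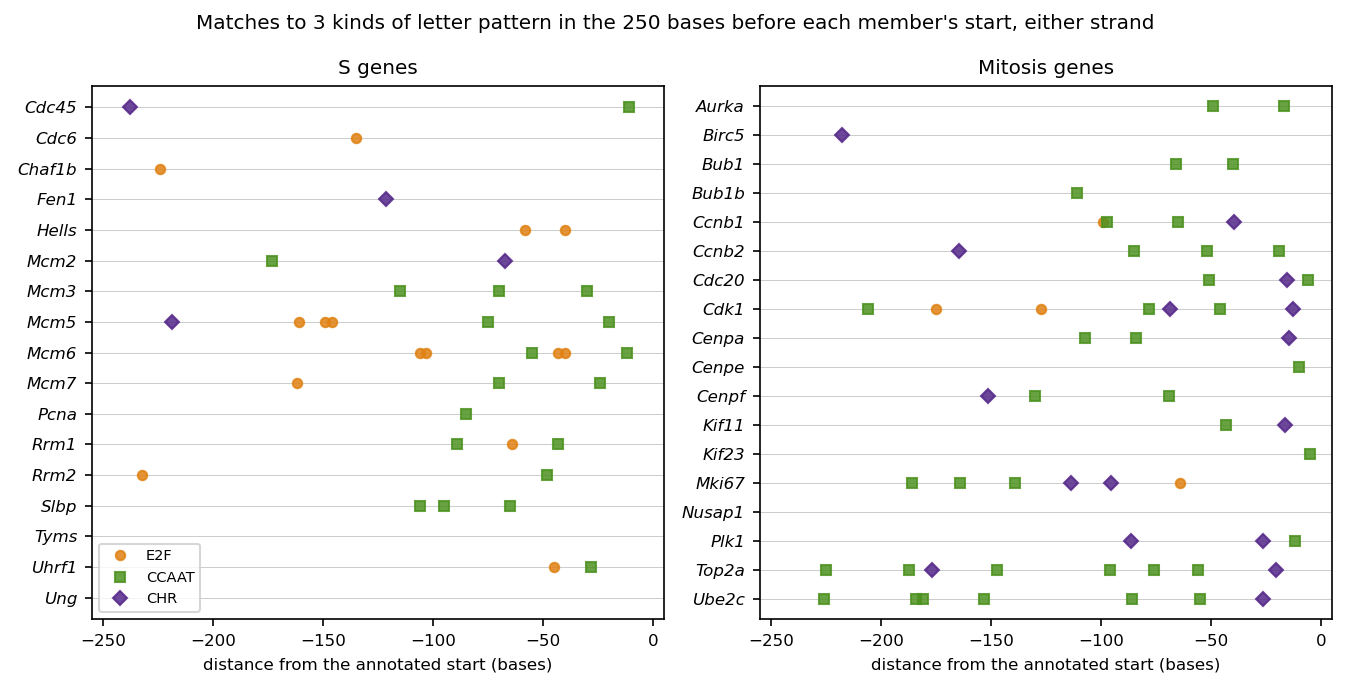
Position of each match to the E2F, CCAAT and CHR letters (symbols) in the 250 bases before the RefSeq start (x axis, bases) of the 17 S genes and 18 mitosis genes with an entry (rows). CHR matches lie within 60 bases of the start in 8 mitosis genes and 0 S genes, and in 5.83% of all genes with an entry.

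The libraries held 12164 barcodes in CRPR2, 9215 in RPR2, 16282 in preSC_CracdKO and 18559 in preSC_WT. Their totals were 61917754, 42592323, 110576113 and 93376185 UMIs in the same order. After filters, 10798, 8455, 14035 and 15726 cells were analysed. Any 2 libraries shared between 36 and 79 barcodes, at most 0.629% of either. Tumour-like cells, which carried all 20 neuroendocrine tumour markers above 0 in every library, were 6623 (61.3%) in CRPR2, 2959 (35.0%) in RPR2, 13716 (97.7%) in preSC_CracdKO and 11893 (75.6%) in preSC_WT. Their median depth differed, at 3377 UMIs per cell in CRPR2, against 5976 in RPR2, and at 5841.5 in preSC_CracdKO, against 4429 in preSC_WT. Cracd, listed as C530008M17Rik, went against the label of the allograft pair, while no lung label states its genotype. Levels are given as CPM, the UMIs of a gene summed over a class of cells and scaled to a common total. Cracd was at 23.6 CPM in CRPR2 and 31.4 CPM in RPR2 tumour-like cells (ratio 0.751, 0.673 to 0.839). It was at 84.1 CPM in the library labelled preSC_CracdKO and 6.83 CPM in preSC_WT (ratio 12.3, 11.2 to 13.6). The labels do not say which bases were deleted, and 3′ tags outside a deletion do not check it. Directions in the allograft pair are therefore those of the library labelled preSC_CracdKO.

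In lung tumour-like cells every S gene was lower in CRPR2 than in RPR2, by small amounts. The S genes summed to 1726 CPM (95% interval 1710 to 1742) in CRPR2 and 2120 CPM (2100 to 2139) in RPR2, a ratio of 0.814 (0.804 to 0.825). The median log2 ratio of the 19 genes was −0.28, against −0.02 over 11240 genes. All 19 lay below 0, 0 of them past 1.5-fold, while 3.04% of all genes were lower and 2.62% higher past that fold.

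Mcm6, a helicase subunit, stood at 107 CPM in CRPR2 and 153 CPM in RPR2, a log2 ratio of −0.50, the furthest from 0 of the S genes. Fen1, the flap endonuclease, had 35.6 CPM in CRPR2 and 49.5 CPM in RPR2 (log2 ratio −0.47). Cdc45, which joins the moving helicase, had 20.4 CPM in CRPR2 and 28.4 CPM in RPR2 (−0.46). The next genes, in the same range, belong to base repair and to the copying of DNA methylation. Ung, the uracil-DNA glycosylase, had 31.8 CPM in CRPR2 and 43.4 CPM in RPR2 (−0.44), and Uhrf1, which recruits the maintenance methyltransferase, had 37.1 CPM in CRPR2 and 49.5 CPM in RPR2 (−0.41). The clamp gene Pcna had 305 CPM in CRPR2 and 372 CPM in RPR2 (−0.29), and Rrm2 had 36.8 CPM in CRPR2 and 44.4 CPM in RPR2 (−0.26). The helicase genes Mcm2 and Gins2 differed least of the named S genes. Mcm2 had 81.4 CPM in CRPR2 and 95.3 CPM in RPR2 (−0.22), and Gins2 had 40.7 CPM in CRPR2 and 48.3 CPM in RPR2 (−0.24).

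The mitosis genes were lower in CRPR2 by more than the S genes. They summed to 1933 CPM (1917 to 1950) in CRPR2 and 2653 CPM (2631 to 2675) in RPR2, a ratio of 0.729 (0.720 to 0.738), with a median log2 ratio of −0.47. All 21 lay below 0, and 6 of them past 1.5-fold, against 3.04% of all genes lower past that fold. The 6 were Ube2c, Ccnb2, Ccnb1, Bub1, Cenpa and Kif11.

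Ube2c, which passes ubiquitin to the targets of the anaphase-promoting complex, had 179 CPM in CRPR2 and 339 CPM in RPR2, a log2 ratio of −0.92 (ratio 0.526, 0.507 to 0.546). The B-type cyclins were close to each other. Ccnb2 had 50.05 CPM in CRPR2 and 82.3 CPM in RPR2 (−0.71), and Ccnb1 had 51.2 CPM in CRPR2 and 83.5 CPM in RPR2 (−0.69). The checkpoint kinase Bub1 had 12.96 CPM in CRPR2 and 21.4 CPM in RPR2 (−0.68), and Cenpa, the histone H3 variant of the centromere, had 99.2 CPM in CRPR2 and 151 CPM in RPR2 (−0.60). Kif11, a spindle motor, had 33.4 CPM in CRPR2 and 51.2 CPM in RPR2 (−0.60). The proliferation marker Mki67 and the topoisomerase Top2a, which are also made in S phase, differed less. Mki67 had 255 CPM in CRPR2 and 280 CPM in RPR2 (−0.13, the mitosis gene closest to 0), and Top2a had 236 CPM in CRPR2 and 292 CPM in RPR2 (−0.30).

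These 6 calls did not hold in deep cells. With only cells of at least 4000 UMIs, 0 mitosis genes passed 1.5-fold, 12 of 21 lay below 0, and the ratio of sums was 0.938. The S genes then had a ratio of 0.915, with 16 of 19 below 0. Other values moved with the pair: 20 stress and early response genes summed to 31203 CPM in CRPR2 and 23879 CPM in RPR2, club cell markers to 668 CPM in CRPR2 and 110 CPM in RPR2, and erythroid markers to 654 CPM in CRPR2 and 60.3 CPM in RPR2. T cell markers summed to 12.4 CPM in CRPR2 and 49.0 CPM in RPR2, and thymocyte markers to 8.08 CPM in CRPR2 and 34.6 CPM in RPR2, the same direction as the cycle genes. Of the 10 club markers, 1 was at 0 in either library, and of the 12 erythroid markers, 2 were at 0 in CRPR2 and 3 in RPR2. Of the 14 T cell markers 0 were at 0 in either library, and of the 12 thymocyte markers 4 were at 0 in CRPR2 and 1 in RPR2. At least 5 CPM in either library was reached by 5 club, 6 erythroid, 2 T cell and 1 thymocyte marker. Their part in the results was not tested.

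**Figure D2:**
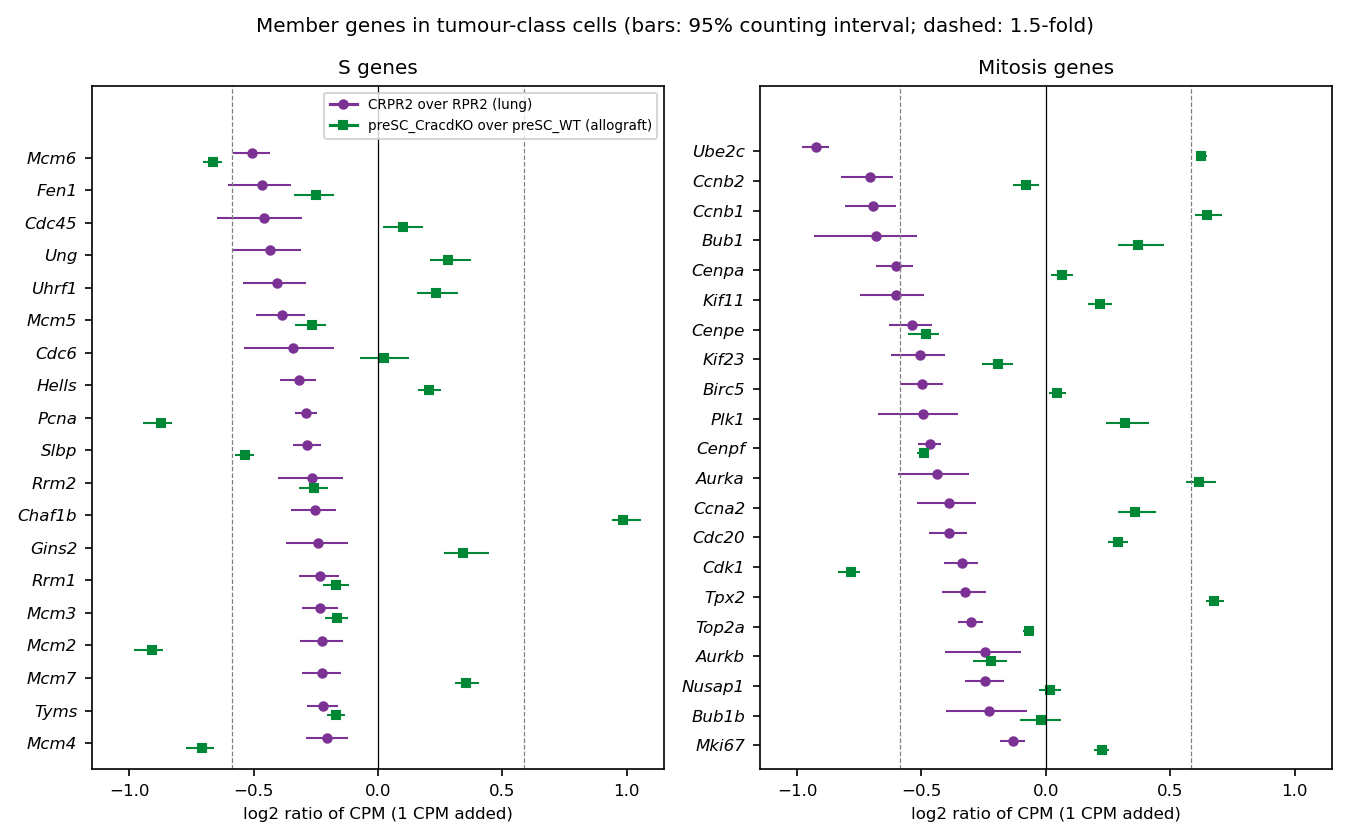
Log2 ratio of CPM (x axis, 1 CPM added) of each S gene and mitosis gene (rows) in tumour-like cells, CRPR2 over RPR2 (purple circles) and preSC_CracdKO over preSC_WT (green squares), with 95% counting intervals and 1.5-fold as dashed lines. All 40 circles lie below 0, while the squares lie on both sides.

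Other genes of the same processes were compared in lung tumour-like cells as well. Of 35 measured replication genes, 34 were lower in CRPR2, 1 of them past 1.5-fold, with a median log2 ratio of −0.16. Dscc1, of an alternative clamp loader, had 13.7 CPM in CRPR2 and 21.7 CPM in RPR2 (−0.63), Tk1, the thymidine kinase, 32.4 CPM in CRPR2 and 48.5 CPM in RPR2 (−0.57), and Mcm10, a replication initiation factor, 7.04 CPM in CRPR2 and 10.7 CPM in RPR2 (−0.54). Of 50 further mitosis genes, 48 were lower, 2 past 1.5-fold, with a median of −0.32. In each list the count past 1.5-fold is near the background, which was 3.04% of all genes lower. Cdca3 had 42.0 CPM in CRPR2 and 74.4 CPM in RPR2 (−0.81), the microtubule depolymerase Kif2c 16.1 CPM in CRPR2 and 25.7 CPM in RPR2 (−0.64), and Gtse1 3.87 CPM in CRPR2 and 6.27 CPM in RPR2 (−0.58).

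The 27 measured regulators of the cycle had a median of −0.17, 0 higher calls and 1 lower call. Of all genes, 2.62% were higher and 3.04% lower, so this count is near the background. The lower call was E2f2, an activating E2F factor, at 38.3 CPM in CRPR2 and 93.4 CPM in RPR2 (−1.26). Mybl2, the activator of late cycle genes, had 5.92 CPM in CRPR2 and 8.59 CPM in RPR2 (−0.47), and the checkpoint kinase Chek1 had 34.6 CPM in CRPR2 and 46.6 CPM in RPR2 (−0.42). The 12 arrest genes had a median of 0.14, with 10 above 0 and 2 below. Past 1.5-fold, 1 was higher and 1 was lower, against 2.62% and 3.04% of all genes. The arrest genes summed to 4881 CPM in CRPR2 and 3797 CPM in RPR2, a ratio of 1.29 (1.27 to 1.30). Btg2 alone made up 2691 CPM of the CRPR2 sum and 1795 CPM of the RPR2 sum. The ratio of sums is therefore not a level of the list as a whole. Cdkn1c had 23.8 CPM in CRPR2 and 46.5 CPM in RPR2 (−0.94), Cdkn2b had 52.1 CPM in CRPR2 and 30.1 CPM in RPR2 (0.77), and Btg2, also one of the 20 stress genes, had 2691 CPM in CRPR2 and 1795 CPM in RPR2 (0.58).

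In the allograft pair the S genes did not move as a block. They summed to 1349 CPM (1341 to 1356) in preSC_CracdKO and 1550 CPM (1541 to 1560) in preSC_WT, a ratio of 0.870 (0.863 to 0.877), with a median log2 ratio of −0.17 against −0.13 over 11743 genes. Past 1.5-fold, 1 S gene was higher and 4 were lower in the library labelled preSC_CracdKO, where 16.6% of all genes were higher and 25.9% lower. The 2 libraries differed in many genes, so a count of this size is near the background.

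The 4 lower S genes were 3 helicase genes and the clamp. Mcm2 had 45.9 CPM in preSC_CracdKO and 86.9 CPM in preSC_WT (log2 ratio −0.91), and Pcna had 49.9 CPM in preSC_CracdKO and 92.3 CPM in preSC_WT (−0.87). Mcm4 had 55.4 CPM in preSC_CracdKO and 91.0 CPM in preSC_WT (−0.71), and Mcm6 had 126 CPM in preSC_CracdKO and 200 CPM in preSC_WT (−0.66). Mcm7, of the same hexamer, lay on the other side, at 113 CPM in preSC_CracdKO and 88.2 CPM in preSC_WT (0.35). The 1 higher gene was Chaf1b, of the chromatin assembly factor that places histones behind the fork, at 102 CPM in preSC_CracdKO and 51.2 CPM in preSC_WT (0.98; ratio 2.00, 1.92 to 2.08). Rrm2 had 59.2 CPM in preSC_CracdKO and 70.8 CPM in preSC_WT (−0.26), and Gins2 had 32.5 CPM in preSC_CracdKO and 25.4 CPM in preSC_WT (0.34).

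The mitosis genes of the allografts summed to 3126 CPM (3114 to 3138) in preSC_CracdKO and 2899 CPM (2885 to 2912) in preSC_WT, a ratio of 1.08 (1.07 to 1.09). Past 1.5-fold, 4 were higher and 1 was lower, against 16.6% and 25.9% of all genes. The count of higher genes is thus near the background. Tpx2, which activates Aurka on the spindle, had 243 CPM in preSC_CracdKO and 152 CPM in preSC_WT (0.68), and Aurka itself had 81.3 CPM in preSC_CracdKO and 52.8 CPM in preSC_WT (0.61). Ccnb1 had 103 CPM in preSC_CracdKO and 65.6 CPM in preSC_WT (0.65), and Ube2c had 576 CPM in preSC_CracdKO and 374 CPM in preSC_WT (0.62). The partner kinase of Ccnb1 lay the other way. Cdk1 had 86.8 CPM in preSC_CracdKO and 150 CPM in preSC_WT (−0.78). Mki67 had 272 CPM in preSC_CracdKO and 233 CPM in preSC_WT (0.22), and Top2a had 433 CPM in preSC_CracdKO and 453 CPM in preSC_WT (−0.07).

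The higher mitosis calls were fewer under 2 other settings. With cells of at least 4000 UMIs the ratio of sums was 0.984, with 0 genes higher and 3 lower past 1.5-fold, and with doublets kept 2 were higher and 1 was lower. Different clusters held most tumour-like cells of the 2 libraries, clusters 0, 2 and 3 in preSC_CracdKO and clusters 4, 5 and 15 in preSC_WT. The 20 stress genes summed to 3887 CPM in preSC_CracdKO and 22288 CPM in preSC_WT, and neutrophil markers to 7.87 CPM in preSC_CracdKO and 325 CPM in preSC_WT. Only 1 of the 11 neutrophil markers reached 5 CPM in either library, so that sum is not a level of the list as a whole. Of the 11, 1 was at 0 in preSC_CracdKO and 3 in preSC_WT. Mitochondrial genes, read as a sign of RNA quality, summed to 28688 CPM in preSC_CracdKO and 17546 CPM in preSC_WT. Past 1.5-fold, 6 of 13 mitochondrial genes were higher and 2 lower, against 16.6% and 25.9% of all genes. Stress, neutrophil and mitochondrial genes thus differed between the libraries. Their part in the results was not tested.

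Among other cycle genes of the allografts, replication genes had 2 higher and 2 lower calls of 36, further mitosis genes 2 and 4 of 48, and regulators 3 and 4 of 26, none above the 16.6% of all genes higher and 25.9% lower. Cdc7, the kinase that fires origins, had 24.0 CPM in preSC_CracdKO and 51.1 CPM in preSC_WT (−1.06), Dscc1 had 32.5 CPM in preSC_CracdKO and 18.3 CPM in preSC_WT (0.80), and the fork protection gene Tipin had 95.2 CPM in preSC_CracdKO and 159 CPM in preSC_WT (−0.74). Kif2c had 44.8 CPM in preSC_CracdKO and 24.2 CPM in preSC_WT (0.86), the centrosome kinase Nek2 had 19.8 CPM in preSC_CracdKO and 36.0 CPM in preSC_WT (−0.83), and the centromere gene Cenpm had 80.5 CPM in preSC_CracdKO and 50.4 CPM in preSC_WT (0.66). Replication and mitosis genes thus each lay on both sides. E2f3 had 48.2 CPM in preSC_CracdKO and 17.5 CPM in preSC_WT (1.41), Mybl2 had 34.5 CPM in preSC_CracdKO and 13.3 CPM in preSC_WT (1.31), and Lin9, of the complex that binds CHR sites, had 31.8 CPM in preSC_CracdKO and 76.5 CPM in preSC_WT (−1.24).

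The arrest genes of the allografts stood apart in size. They summed to 759 CPM in preSC_CracdKO and 3909 CPM in preSC_WT, with 9 of 12 lower past 1.5-fold, against 25.9% of all genes, and a median log2 ratio of −1.63, against −0.13 over all genes. Btg2 had 30.5 CPM in preSC_CracdKO and 1905 CPM in preSC_WT (−5.92). The inhibitor Cdkn2c had 46.5 CPM in preSC_CracdKO and 277 CPM in preSC_WT (−2.55), and the p53 target Cdkn1a had 123 CPM in preSC_CracdKO and 607 CPM in preSC_WT (−2.30). The stress genes, of which Btg2 is one, were lower in 18 of 20 in the same library.

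Single cells were then counted at equal depth. A tumour-like cell thinned to 2000 UMIs was called S-high or mitosis-high with at least 3 UMIs from the S or the mitosis genes, and 5556 CRPR2, 2740 RPR2, 13211 preSC_CracdKO and 10141 preSC_WT cells were deep enough. In the lung pair both kinds were less frequent in CRPR2. S-high cells were 46.1% (Clopper-Pearson 44.8 to 47.5) in CRPR2 and 56.6% (54.7 to 58.4) in RPR2, a ratio of 0.816 (0.781 to 0.852). Mitosis-high cells were 16.97% (15.99 to 17.99) in CRPR2 and 23.8% (22.2 to 25.5) in RPR2, a ratio of 0.712 (0.652 to 0.778), and of 0.661 to 0.721 when each mitosis gene was left out in turn. Without thinning the shares were 60.9% in CRPR2 and 82.7% in RPR2 for S-high cells, and 27.8% in CRPR2 and 43.5% in RPR2 for mitosis-high cells.

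In the allograft pair the 2 kinds went opposite ways. S-high cells were 41.6% (40.8 to 42.5) in preSC_CracdKO and 43.4% (42.4 to 44.3) in preSC_WT, a ratio of 0.960 (0.932 to 0.989). Mitosis-high cells were 36.8% (36.0 to 37.6) in preSC_CracdKO and 26.3% (25.4 to 27.1) in preSC_WT, a ratio of 1.401 (1.35 to 1.46). Leaving out each mitosis gene in turn kept that ratio between 1.33, without Ube2c, and 1.51, without Top2a. Without thinning S-high cells were 77.4% in preSC_CracdKO and 64.8% in preSC_WT, and mitosis-high cells 46.6% in preSC_CracdKO and 38.9% in preSC_WT.

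Mitosis calls were few in the lung monocyte-like and B-like cells read as background. Each of these shares rests on few called cells, and no allograft class is given. In classes that should hold few dividing cells, mitosis-high cells were 1.504% of 133 monocyte-like cells in CRPR2 and 1.04% of 96 in RPR2, at median depths of 3923 and 5547 UMIs before thinning, and 1.961% of 102 B-like cells in CRPR2 and 2.61% of 268 in RPR2. S-high cells were 4.51% in CRPR2 and 1.04% in RPR2 among the same monocyte-like cells. Tumour-like cells just outside the mitosis limit, with exactly 2 UMIs, were 7.92% in CRPR2, 7.77% in RPR2, 4.79% in preSC_CracdKO and 7.24% in preSC_WT, and those with exactly 3 were 3.37%, 3.25%, 2.63% and 3.66% in the same order. Most mitosis-high cells were far above the limit, with medians of 9, 14, 12 and 14 UMIs per 2000, and they held 87.4% to 95.6% of all mitosis UMIs. The S limit separated cells less clearly. Exactly 2 S UMIs were found in 16.2%, 15.3%, 19.4% and 16.2% of tumour-like cells in the same order. Exactly 3 were found in 11.5%, 10.6%, 15.0% and 11.7%. S-high cells had medians of only 5, 6, 4 and 5 S UMIs per 2000.

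The lung difference depended on depth. Mitosis-high cells were deeper before thinning, with a median of 5038 UMIs against 3283 in cells of neither kind in CRPR2, and 7617 against 5194 in RPR2. In cells of 2000 to 4000 UMIs, mitosis-high cells were 10.3% in CRPR2 and 22.8% in RPR2. In cells of 4000 to 8000 UMIs they were 23.6% in CRPR2 and 17.7% in RPR2, the other way round, and in cells of 8000 UMIs or more 31.2% in CRPR2 and 34.9% in RPR2. S-high cells were 36.7%, 56.6% and 61.7% in CRPR2 over the same depths, and 46.1%, 53.8% and 65.9% in RPR2. In the allograft pair mitosis-high cells were the more frequent in preSC_CracdKO at each depth, with 25.5% against 15.1% in preSC_WT, 31.6% against 27.6%, and 56.3% against 41.8%. The cause of the lung pattern was not tested.

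**Figure D3:**
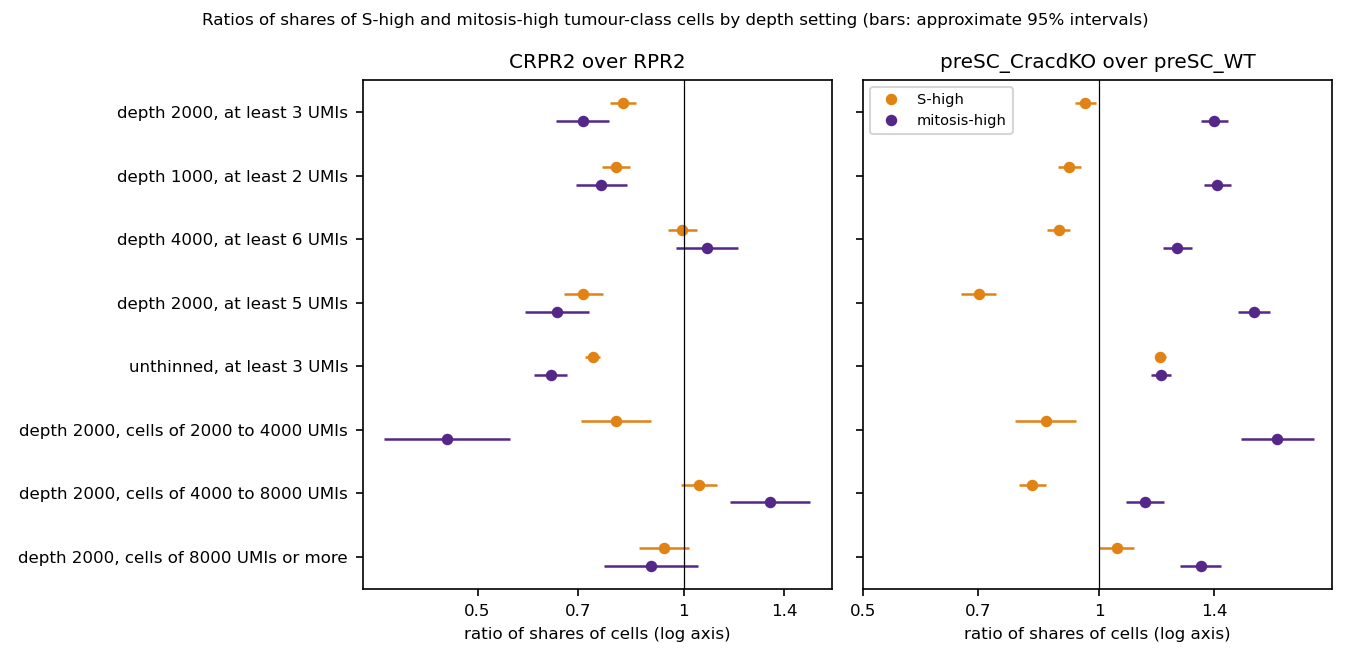
Ratio of the shares of S-high (orange) and mitosis-high (purple) tumour-like cells (x axis, log scale), CRPR2 over RPR2 on the left and preSC_CracdKO over preSC_WT on the right, under each depth setting (rows), with approximate 95% intervals. The lung ratio for mitosis-high cells is 0.712 at 2000 UMIs and 1.08 at 4000 UMIs, while the allograft ratio stays between 1.14 and 1.69.

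Within the 4 lung tumour-like clusters, which were found without cell cycle genes, dividing cells were spread unevenly. Cluster 7 had 40.9% mitosis-high cells in CRPR2 and 41.6% in RPR2, cluster 2 had 24.9% and 29.1%, cluster 1 had 10.7% and 14.3%, and cluster 5 had 4.502% and 4.55% in the same order. The summed mitosis level followed, from 489 CPM in CRPR2 and 591 CPM in RPR2 in cluster 5 up to 4622 CPM in CRPR2 and 4642 CPM in RPR2 in cluster 7. Cluster 7 gave nearly equal shares and sums in the 2 libraries, and cluster 5 nearly equal shares with the lower sum in CRPR2. The clusters took different shares of the tumour-like cells. Cluster 5 held 30.2% in CRPR2 and 20.9% in RPR2, cluster 2 held 30.5% in CRPR2 and 42.8% in RPR2, and cluster 7 held 21.3% in CRPR2 and 23.5% in RPR2. In cluster 7 the depth minimum kept 660 of 1413 cells in CRPR2 and 502 of 696 in RPR2, at median depths of 1857 UMIs in CRPR2 and 4280 UMIs in RPR2 over all its cells. S-high cells varied less between clusters, from 43.3% to 52.1% in CRPR2 and from 50.4% to 62.4% in RPR2, and were the fewer in CRPR2 in all 4.

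Tumour-like cells were also sorted by the other members, to see in which of them each gene was found. For each gene the cells were called S-high or mitosis-high from the remaining members, so that no gene chose its own cells. All 21 mitosis genes were higher in cells that were only mitosis-high than in cells that were only S-high, in all 4 libraries, with log2 ratios of CPM from 2.28 to 7.35. The list holds genes known to act together, so this direction was largely set beforehand and does not support the list. No share over all genes was computed for this split. The S genes did not all behave alike. Ung had log2 ratios of −2.66 in CRPR2, −2.77 in RPR2, −2.13 in preSC_CracdKO and −3.58 in preSC_WT, the furthest below 0 of the S genes in 3 libraries, while Cdc6 and Mcm5 lay lower in RPR2. Cdc6 had −2.44 in CRPR2, −3.70 in RPR2, −1.44 in preSC_CracdKO and −2.64 in preSC_WT, so its place among the S genes varied. Some of these values rest on few UMIs, with 1 Cdc6 UMI in the mitosis-high RPR2 cells and 3 in those of CRPR2.

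Rrm2 was the exception among the S genes. It was at 14.8 CPM in S-high-only, 169 CPM in doubly high and 52.9 CPM in mitosis-high-only cells of CRPR2, and at 26.4, 182 and 48.2 CPM in those of RPR2. In preSC_CracdKO the same 3 levels were 17.5, 162 and 83.6 CPM, and in preSC_WT 42.2, 267 and 81.2 CPM. In all 4 libraries Rrm2 was thus lowest in the S-high-only cells of the 3 and highest in cells with both programmes. Cdc45 and Uhrf1 were near 0 on the same log2 scale, from −0.32 to 0.18, and Rrm1 and Tyms were above 0 in preSC_CracdKO (0.36 and 0.40) and below 0 in the other 3 libraries.

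Among the mitosis genes, Cdk1 had the smallest ratio in each library, with log2 values of 2.30 in CRPR2, 2.92 in RPR2, 2.97 in preSC_CracdKO and 2.28 in preSC_WT. Mki67 had 118 CPM in S-high-only cells of CRPR2, 89.9 CPM in RPR2, 50.8 CPM in preSC_CracdKO and 76.1 CPM in preSC_WT, against 1064, 777, 543 and 639 CPM in mitosis-high-only cells. Ube2c had 8.23 CPM in S-high-only cells of CRPR2, 15.9 CPM in RPR2 and 8.06 CPM in preSC_WT, but 55.3 CPM in preSC_CracdKO. Cells of neither kind had 107 CPM of Ube2c in preSC_CracdKO and 17.9 CPM in preSC_WT.

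The share of S-high cells among mitosis-high cells was larger in CRPR2 than in RPR2. Among mitosis-high cells, 60.2% were also S-high in CRPR2 and 51.5% in RPR2, and among the remaining cells 43.3% were S-high in CRPR2 and 58.2% in RPR2. In preSC_CracdKO the shares were 45.6% of mitosis-high and 39.3% of other cells, and in preSC_WT 49.2% and 41.3%. S-high cells were thus the more frequent among mitosis-high cells in 3 libraries and the less frequent in RPR2.

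**Figure D4:**
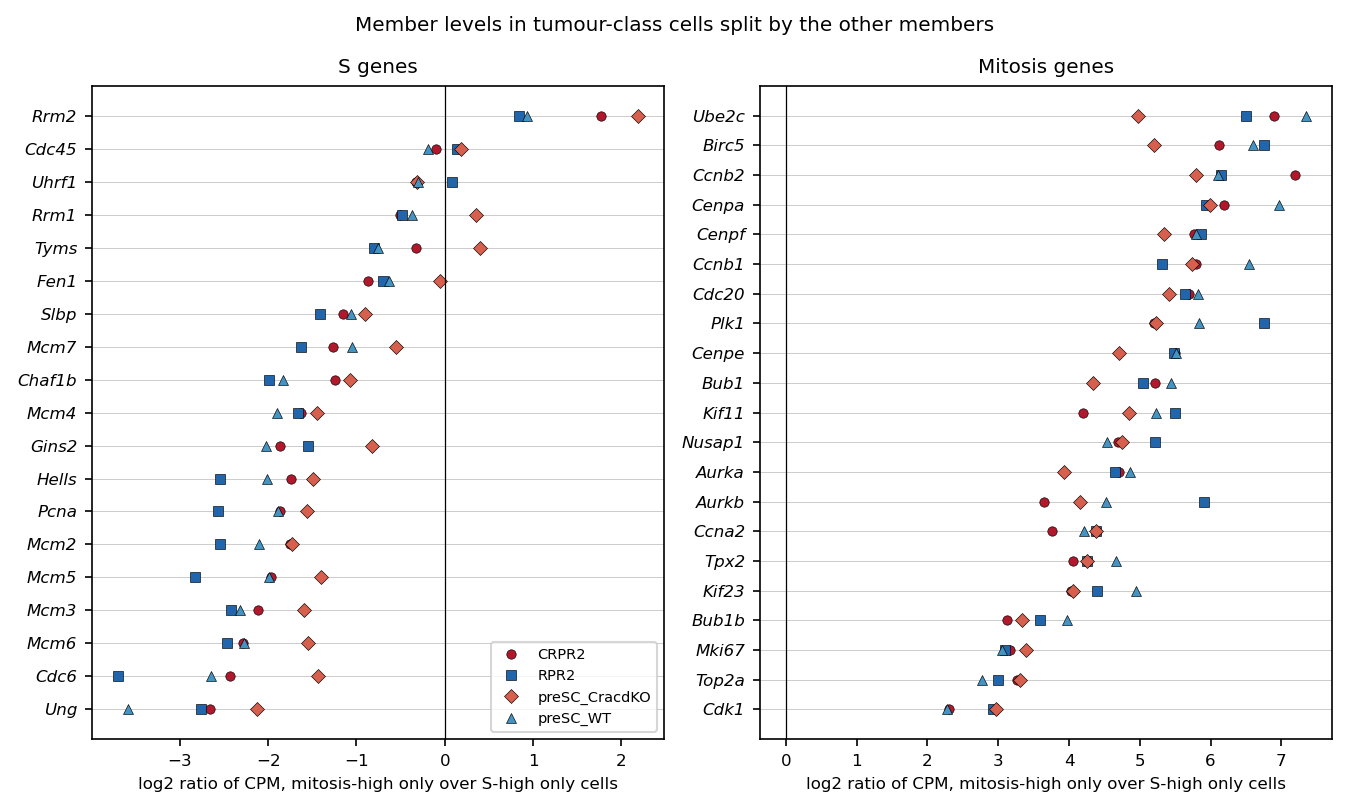
Log2 ratio of CPM (x axis) of each S gene and mitosis gene (rows) in cells that were only mitosis-high over cells that were only S-high, each gene left out of its own call, in the 4 libraries (symbols). All 21 mitosis genes lie above 2, and Rrm2 is the only S gene above 0 in all 4 libraries.

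Levels inside the dividing cells differed from levels over all tumour-like cells. Among mitosis-high cells of the lung pair, thinned and called without the gene itself, 17 of 21 mitosis genes were lower in CRPR2, with a median log2 ratio of −0.17 against 0.05 over all genes. Past 1.5-fold 0 were higher and 1 was lower, against 11.9% and 7.14% of all genes. That gene was Ube2c, at 724 CPM in CRPR2 and 1145 CPM in RPR2 (−0.66; ratio 0.633, 0.587 to 0.682). Mki67 lay the other way, at 1011 CPM in CRPR2 and 779 CPM in RPR2 (0.37; ratio 1.297, 1.195 to 1.408). Ccnb1 had 206 CPM in CRPR2 and 247 CPM in RPR2 (−0.26), Ccnb2 had 209 CPM in CRPR2 and 279 CPM in RPR2 (−0.42), and Top2a had 861 CPM in CRPR2 and 828 CPM in RPR2 (0.06). Mki67 was thus lower over all CRPR2 tumour-like cells and higher within the mitosis-high ones. In S-high cells 0 S genes were called, against 5.19% of all genes higher and 4.55% lower, and Mcm6 had 151 CPM in CRPR2 and 210 CPM in RPR2 (−0.48).

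Among mitosis-high cells of the allografts, 16 of 21 mitosis genes were lower in preSC_CracdKO, with 0 higher and 6 lower past 1.5-fold, against 14.9% and 29.1% of all genes. The 6 were Cdk1, Cenpf, Cenpe, Aurkb, Kif23 and Bub1b, which serve entry into mitosis, the kinetochore, the midzone and the checkpoint. Cdk1 had 164 CPM in preSC_CracdKO and 375 CPM in preSC_WT (−1.19), and Cenpf had 685 CPM in preSC_CracdKO and 1240 CPM in preSC_WT (−0.85). Ube2c had 1363 CPM in preSC_CracdKO and 1100 CPM in preSC_WT (0.31), and Tpx2 had 515 CPM in preSC_CracdKO and 433 CPM in preSC_WT (0.25). Their median log2 ratio was −0.32, against −0.19 over all genes, and the count of lower genes is at the background. In S-high cells Chaf1b was again higher, at 131 CPM in preSC_CracdKO and 74.95 CPM in preSC_WT (0.80), and Pcna lower, at 70.3 CPM in preSC_CracdKO and 145 CPM in preSC_WT (−1.03). With Pcna, the lower S genes past 1.5-fold were Mcm2, Mcm4, Mcm6 and Slbp, so 5 were lower and 1 was higher, against 26.3% and 16.4% of all genes.

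Outside the tumour, the cells nearest to tumour-like levels were thymocyte-like cells, of which RPR2 held 3251 and CRPR2 none as a class. Developing T cells pass through rapid division in the thymus. They summed to 2108 CPM for S genes and 2967 CPM for mitosis genes (RPR2 tumour-like cells had 2120 CPM and 2653 CPM). At 2000 UMIs, 60.4% were mitosis-high, but only 826 of the 3251 cells were that deep. At 1000 UMIs and at least 2 mitosis UMIs, 20.4% of 2548 cells were. An unnamed CRPR2 cluster of 524 cells, led by Tm4sf1, Spp1, Igfbp7 and Tff1, had 1174 CPM of S genes and 1444 CPM of mitosis genes.

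Club-like cells, which secrete proteins into the airway, had fewer mitosis transcripts in CRPR2. Their mitosis genes summed to 450 CPM in CRPR2 and 903 CPM in RPR2, with 18 of 21 lower past 1.5-fold and 0 higher, against 8.9% of all genes lower and 3.77% higher. Their S genes summed to 950 CPM in CRPR2 and 1132 CPM in RPR2. Mitosis-high club-like cells were 5.39% in CRPR2 and 9.005% in RPR2, and their intervals overlapped (4.04 to 7.02 and 5.51 to 13.7). T-like cells had 157 CPM of mitosis genes in CRPR2 and 299 CPM in RPR2, with 9 of 13 measured genes lower, against 19.8% of all genes. The remaining mitosis genes were under 5 CPM in both libraries and were not counted. The T-like class joined clusters 9 and 10, with 521 and 466 CRPR2 cells and 352 and 944 RPR2 cells, so its make-up differed. Mitosis genes summed to 183 CPM in CRPR2 and 354 CPM in RPR2 in cluster 9, and to 127 and 273 CPM in cluster 10. With cell cycle genes in the clustering, a T-like cluster held 3 CRPR2 and 699 RPR2 cells.

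Mitosis genes of macrophage-like, monocyte-like, plasma-like and B-like cells lay the other way. The S genes did so in macrophage-like cells (805 CPM in CRPR2, 570 CPM in RPR2) and monocyte-like cells (328 CPM and 224 CPM). In plasma-like cells the S genes were nearly level, at 278 CPM in CRPR2 and 265 CPM in RPR2. In B-like cells they were at 318 CPM in CRPR2 and 349 CPM in RPR2. Macrophage-like cells had 550 CPM of mitosis genes in CRPR2 and 366 CPM in RPR2, with 13 of 21 genes higher against 27.7% of all genes, but from 206 cells in CRPR2 and 61 cells in RPR2. The further mitosis genes in the same cells did not follow, with 12 of 45 higher and 16 lower, against 25.6% of all genes lower, and a median log2 ratio of −0.08. Monocyte-like cells had 203 CPM of mitosis genes in CRPR2 and 110 CPM in RPR2, with 9 of 12 higher against 24.9% of all genes. Plasma-like cells had 357 CPM in CRPR2 and 208 CPM in RPR2, with 10 of 16 higher against 27.7% of all genes, and B-like cells had 291 CPM in CRPR2 and 214 CPM in RPR2, with 7 of 16 higher against 14.8% of all genes. These sums rest on 64 to 542 UMIs per library and class.

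In the allografts the stroma was seen mainly in preSC_WT. There, endothelial-like cells had 739 CPM of mitosis genes and 372 CPM of S genes, macrophage-like cells 720 and 617 CPM, and fibroblast-like cells 352 and 250 CPM. T-like cells had 84.6 CPM of mitosis genes in preSC_CracdKO, from 8 UMIs in 70 cells, and 479 CPM in preSC_WT, from 963 UMIs in 1535 cells. With so few UMIs no count of single genes is given for these cells. B-like cells had 154 CPM of mitosis genes in preSC_CracdKO and 187 CPM in preSC_WT, with overlapping intervals (81.8 to 263 and 160 to 217).

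**Figure D5:**
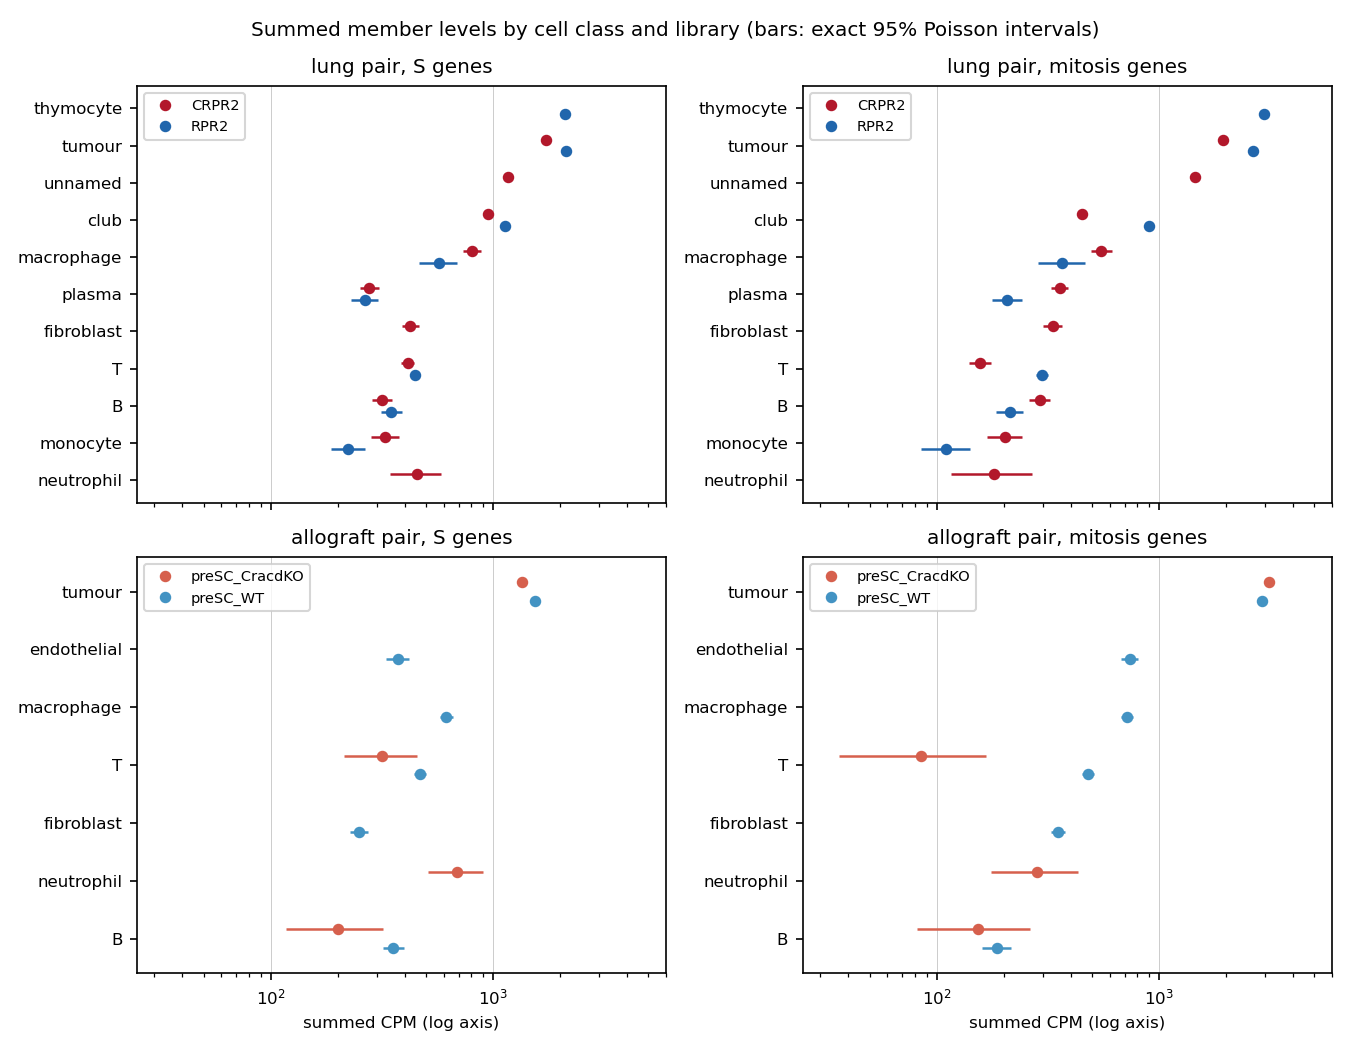
Summed CPM (x axis, log scale) of the S genes (left) and mitosis genes (right) in each cell class (rows) of the lung pair (above) and the allograft pair (below), by library, with exact 95% Poisson intervals; all class names were rebuilt from markers. Tumour-like and thymocyte-like cells reach 1349 to 3126 CPM, and B-like and T-like cells stay under 500 CPM in every library.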

How the data were processed

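Gene expression was measured in single cells of 4 libraries with the 10x Genomics 3′ v3.1 chemistry, 1 library per group. Per the labels' protocols, tumours were minced, digested with enzymes, filtered and cleared of dead cells before capture. The deposited tables hold raw counts of unique molecular identifiers (UMIs, 1 per captured RNA molecule) per gene and cell barcode. Per the file headers, Cell Ranger 6.1.2 made the tables of the lung pair and 5.0.0 those of the allografts. The mm10 build and, as further tools, Scanpy 1.8.2 and Seurat stand in the submitters' processing notes.

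Barcodes under 300 detected genes or over 15% mitochondrial UMIs were left out (scanpy 1.11.5, python 3.11.15, numpy 2.4.6, scipy 1.17.1). Doublets were scored with Scrublet. Its automatic threshold marked 0 cells in CRPR2 and in preSC_CracdKO, so the highest scores were removed in all 4 libraries at 0.8% per 1000 barcodes. Each pair was clustered on 2000 variable genes without cell cycle genes (50 principal components, 15 neighbours, Leiden resolution 1, no integration), and clusters were named from marker lists. The class names were rebuilt here and carry the ending "-like".

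For each class and library, the UMIs of a gene were added up and divided by the UMIs of all genes there, and the result is given as CPM, on the usual scale. A log2 ratio was taken after adding 1 CPM. A gene was called when it had at least 5 CPM in the higher library and passed a fold of 1.5. For shares of cells, each cell was thinned at random to 2000 UMIs and called S-high or mitosis-high with at least 3 UMIs summed over the S or the mitosis genes. With 1 library per group there was no test. The 95% intervals (exact Poisson, Clopper-Pearson, exact conditional binomial for ratios of sums) cover counting error only, not the spread between tumours or animals. Cells under 2000 UMIs could not enter the shares. The alternatives were TMM factors (edgeR 4.0.16, R 4.3.3), other depths and thresholds, doublets kept, and clustering with cell cycle genes. Scripts were tested on simulated data.

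The genes described individually were the 5 S genes and the 5 mitosis genes with the largest absolute log2 ratio per pair, 8 others always given (Mcm2, Pcna, Rrm2, Gins2, Mki67, Top2a, Ccnb1, Ube2c), and 3 per further list. The member genes and all lists were chosen with earlier results of these data known.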

Additional observations from a re-analysis of the deposited data

Results flagged for a closer look

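As a summed list, the mitosis genes differed in opposite directions in the lung pair and in the allograft pair, and the difference between the pairs was not tested. The share of mitosis-high tumour-like cells had a ratio of 0.712 for CRPR2 over RPR2 and of 1.401 for the library labelled preSC_CracdKO over preSC_WT. The summed mitosis CPM had ratios of 0.729 and 1.08 in the same order. Ube2c had log2 ratios of −0.92 for CRPR2 over RPR2 and 0.62 for preSC_CracdKO over preSC_WT, and Ccnb1 had log2 ratios of −0.69 and 0.65. Past 1.5-fold, 3.04% of all genes were lower in CRPR2 and 16.6% were higher in preSC_CracdKO. The opposed directions did not hold at every depth and in every gene. At 4000 UMIs the share ratios were 1.08 for CRPR2 over RPR2 and 1.26 for preSC_CracdKO over preSC_WT, and in cells of at least 4000 UMIs the ratios of sums were 0.938 and 0.984 in the same order. Of the 21 mitosis genes, 8 were lower in preSC_CracdKO as well, Cdk1 among them (−0.78). Cracd itself had ratios of 0.751 for CRPR2 over RPR2 and 12.3 for the library labelled preSC_CracdKO over preSC_WT, the second against its label. Each pair was 1 library against 1.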

How the results depend on the processing

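Of 64 planned recomputations of the 12 results, 37 moved by less than counting error or 1.5 times, 25 moved further and 2 changed direction, and of 20 chosen after seeing the data, 3, 13 and 4 did so. The lung ratio of S-high shares (0.816) was 0.995 at 4000 UMIs, 0.714 with at least 5 UMIs, 0.736 unthinned, and 1.05 and 0.935 in cells of 4000 to 8000 and of 8000 or more UMIs. That of mitosis-high shares (0.712) was 1.08 at 4000 UMIs, 0.639 unthinned, and 0.451, 1.34 and 0.896 in the 3 depth ranges from shallow to deep. The lung S sum (0.814) was 0.839 with TMM, 0.800 per cell and 0.915 in cells of at least 4000 UMIs, and the mitosis sum (0.729) was 0.751 with TMM, 0.716 per cell, 0.745 with doublets kept and 0.938 in those cells. The 6 lung mitosis calls became 3 with 5 CPM added, 0 at 2-fold and 0 in cells of at least 4000 UMIs. The allograft ratio of S-high shares (0.960) was 0.915 at 1000 UMIs, 0.887 at 4000 UMIs, 0.702 with at least 5 UMIs, 1.195 unthinned, and 0.855, 0.821 and 1.05 in the depth ranges. That of mitosis-high shares (1.401) was 1.26 at 4000 UMIs, 1.57 with at least 5 UMIs, 1.199 unthinned, and 1.69, 1.14 and 1.35. The allograft S sum (0.870) was 0.933 with TMM, 0.848 per cell and 0.845 in cells of at least 4000 UMIs, and the mitosis sum (1.08) was 1.16, 1.12 and 0.984, and 1.05 with doublets kept. The 5 allograft S calls became 0 at 2-fold, and the 5 mitosis calls 0 at 2-fold, 3 with doublets kept and 3 in cells of at least 4000 UMIs. The cause of these changes was not tested. TMM moved the median log2 ratio of all allograft genes to −0.03. Of 360 recomputed values of single genes, 250 moved by less than counting error and 110 further. A change of direction was counted only for genes past 1.5-fold in the main run, and there were 0. Sign changes of genes under that fold were not counted as such. Doublets removed here were more often mitosis-high than cells kept (28.6% against 14.1% in CRPR2, 36.0% against 23.4% in RPR2, 52.6% against 36.7% in preSC_CracdKO and 37.8% against 24.99% in preSC_WT). No paired analysis was possible because each group is 1 library.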
